A study of Rattus norvegicus with 30 samples.

Results

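The 7 libraries of shock-resistant (SR) rats carried the letter L or R in their titles, and the sides of this split, SR-L (n = 3) and SR-R (n = 4), were compared with each other and with the control (CT) libraries (n = 7). They were 7 of 30 libraries, 1 per rat. What the letter stands for is given neither by the labels nor by the methods of the study, and the same holds for the number and the cohort code (XII or XIII) in the same titles. Both cohorts held both letters in the SR group, with 2 SR-L and 2 SR-R libraries in cohort XII and 1 SR-L and 2 SR-R libraries in cohort XIII.

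All rats were adult wild-type male Sprague Dawley rats with a jugular catheter. SR rats self-administered methamphetamine (METH) for 21 days and kept pressing the lever during 8 further days in which presses could bring a foot-shock. Shock-sensitive rats (SS, n = 6) had the same drug and shock schedule but cut their intake. CT rats took saline and had no shocks. Yoked rats (YSR and YSS, n = 5 each) took saline and received the shocks of the SR or SS rat to which each was paired. The rats were outbred, and the SR and SS groups were formed from the behavior of the rats and not by assignment.

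The hippocampus holds memories of places and of what followed an action, and METH, which releases dopamine and other monoamines, changes gene expression there. A whole dissected region mixes neurons, glia and blood vessels with traces of choroid plexus and meninges at its borders, so that a transcript can differ between libraries because its cells express more of it or because more of those cells were taken. In such bulk tissue, fewer cells of a type and less RNA per cell cannot be told apart. The labels name the tissue as dorsal striatum, whereas the protocol in the same labels and the methods name the hippocampus. The tables pair gene identifiers with positions but not with gene names, and 0 of 32552 identifiers could be matched to a symbol, so that the tissue could not be checked against its markers and the known roles of the genes below are not given. Genes are placed by chromosome, start and end as deposited, in a genome build that is not given in the sources used here.

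The libraries held between 14584340 and 19997820 counts, and the SR libraries between 16329258 and 18737037, so that 3 counts, the floor used for detection, were worth at most 0.188 CPM in an SR library. CPM are counts scaled to library size after TMM normalization. SR-L and SR-R overlapped in total counts, in the share of mitochondrial counts (8.29% ± 1.24 vs. 7.57% ± 0.862, SD, n = 3 and 4) and in the share of the 10 most abundant genes (8.48% ± 1.23 vs. 7.79% ± 0.795). No pair of SR libraries agreed within counting noise: the chi-square per degree of freedom over 11793 genes ran from 9.35 to 27.1 in the 9 pairs within a side and from 7.57 to 26.1 in the 12 pairs across.

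SR-L and SR-R differed in 43 of 16079 tested genes, 0.267% of them, at an adjusted p under 0.05 (edgeR's quasi-likelihood test on all 30 libraries, Benjamini-Hochberg). Of these, 23 (0.143%) were higher and 20 (0.124%) lower in SR-L. The directions differed in kind. The 23 genes higher in SR-L were little expressed, at a median of 0.904 CPM over all libraries against 19.3 CPM over all tested genes, and far apart between the sides, whereas the 20 genes lower in SR-L were mostly better expressed, shorter and less far apart. At an unadjusted p under 0.05 the sides differed in 1156 genes (7.19%), with SR-L above SR-R in 482 (3%) and below it in 674 (4.19%). A minimum change of 1.7-fold on top of this p left 154 genes (0.958%). In all 43 genes every SR-L library lay on the same side of every SR-R library, which was so in 1112 (6.92%) of the tested genes. DESeq2 called 63 genes, 22 of the 23 and 19 of the 20 among them.

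Of the 23 genes higher in SR-L, 11 were at 3 counts or fewer in every SR-R library and above 3 in every SR-L library. Of these 11, 3 had no count in any SR-R library, 5 had a highest SR-R count of 1, and the other 3 a highest count of 2 or 3. Their summed level was 22.0, 14.6 and 17.8 CPM in the SR-L libraries XIII-L09, XII-L05 and XII-L07. In the SR-R libraries XIII-R07, XIII-R09, XII-R05 and XII-R07 it was 0.353, 0.174, 0.472 and 0.182 CPM, from 6, 3, 8 and 3 counts in all. The CT libraries spanned 13.8 to 25.6 CPM, around the SR-L libraries and far above the SR-R libraries. The SS (0.166 to 0.698 CPM), YSR (0.239 to 0.596 CPM) and YSS (0.170 to 0.890 CPM) libraries, in contrast, sat with SR-R. The low level in SR-R follows from how these 11 genes were picked. They passed the filter on low counts only through CT and SR-L libraries. The plot of summed levels shows these 11 genes beside the 20 lower genes described further on.

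**Figure D1:**
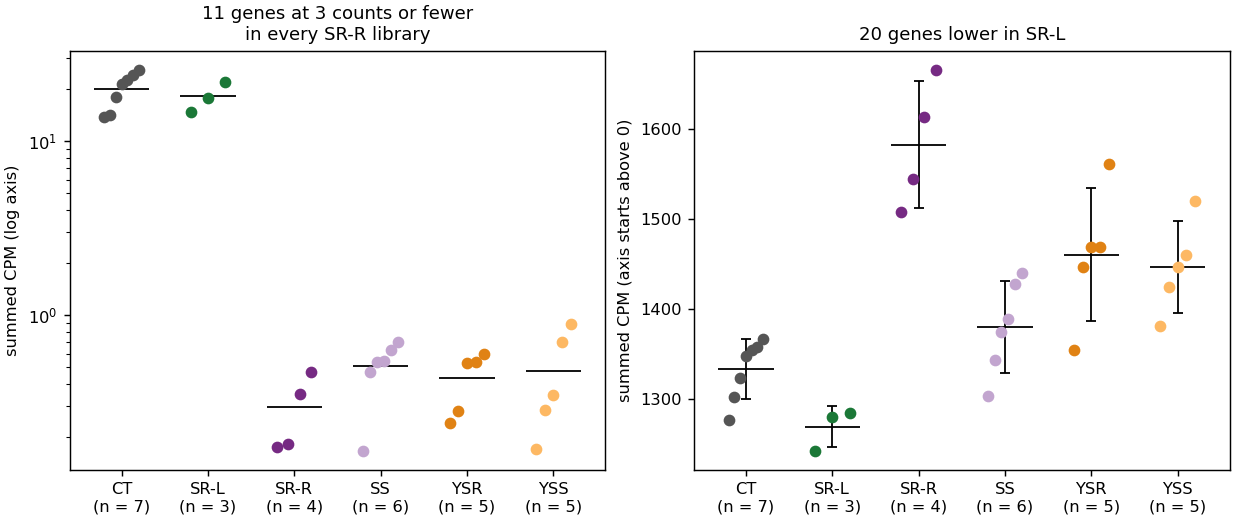
Summed CPM per library (points) of the 11 genes at 3 counts or fewer in every SR-R library (left, log axis, lines at the group means) and of the 20 genes lower in SR-L (right, linear axis that starts above 0, lines and bars at mean ± SD) in the 6 groups. On the left SR-L lies with CT and SR-R with SS, YSR and YSS, and on the right the SR-R libraries, 1508 to 1666 CPM, lie above all CT libraries, 1277 to 1367 CPM, and the SR-L libraries, 1242 to 1284 CPM, near the lowest of them.

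ENSRNOG00000007092 (chromosome 2, 182027115 to 182038178, 10 exons) had the smallest p of the comparison. Its level was 5.55, 4.06 and 3.85 CPM in the SR-L libraries, from 101, 65 and 71 counts. In SR-R a single count was found, in XII-R05 (0.0590 CPM), and the other 3 libraries were at 0. With 237 against 1 count the ratio of the rates was 305, with an exact 95% interval from 54.2 to 12088 that covers counting error only. The fitted difference, which depends on the prior count, was a log2 fold change of 7.68 (SE 0.52, adjusted p = 4.35e-11, edgeR). The SE, here and below, is the size of the log2 fold change divided by the square root of the test's F statistic. With 1 count in SR-R this SE understates the counting error given above. The comparison was chosen with earlier results of these data known, and this gene passed the filter on low counts only through CT and SR-L libraries. Its p, like those of the other genes higher in SR-L, therefore describes the gene and is not independent support for the split. CT ran from 4.05 over a median of 6.01 to 7.04 CPM, so that 2 of the SR-L libraries lay within the CT range and 1 just under it. SS, YSR and YSS had no library above 0.0607 CPM.

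Another 3 of the 11 genes lay near it on chromosome 2, and they are singled out here after their values were seen. The gene at 182006242 to 182013763 is the next listed gene on that side, 13352 bases away, and the gene at 181987217 to 181994514 is the next after it, 11728 bases further, with 0 listed genes in between. The remaining gene lies at 180897011 to 180914940, 1072277 bases before these with 13 listed genes in between. The gene at 181987217 was at 2.80, 1.13 and 1.46 CPM in SR-L and at 0.176, 0, 0 and 0.0607 CPM in SR-R. The gene at 182006242 was at 2.69, 1.81 and 2.22 CPM in SR-L and at 0.0588, 0, 0.0590 and 0 CPM in SR-R. The gene at 180897011 was at 1.48, 0.438 and 1.08 CPM against at most 0.0607 CPM. Across the 3 neighbouring genes, XIII-L09 was the highest SR-L library each time. A gene on chromosome 3 (171213936 to 171219871) had 24, 23 and 25 counts in SR-L (1.32, 1.44 and 1.35 CPM) and none in SR-R, at least 7.73-fold higher when each SR-R library is put at the floor of 3 counts.

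The other 12 genes higher in SR-L were detected on both sides. Their fitted differences ran from 1.62-fold to 15.0-fold with a median of 3.73-fold, and their summed level was 96.8 to 101 CPM in SR-L, 40.2 to 49.1 CPM in SR-R and 84.4 to 112 CPM in CT. ENSRNOG00000005542 (chromosome 6, 33176778 to 33224997, 32 exons) was at 6.10, 4.94 and 6.50 CPM in SR-L and at 0.412, 0.811, 0.118 and 0.182 CPM in SR-R, a log2 fold change of 3.91 (SE 0.40, adjusted p = 5.55e-07, edgeR). CT ran from 3.52 over 6.29 to 6.83 CPM and held all 3 SR-L libraries, and no SS, YSR or YSS library was above 0.364 CPM. The 38-exon gene at 74124016 to 74236274 on chromosome 9 was at 9.46, 7.56 and 8.72 CPM in SR-L, at 1.82, 1.74, 0.885 and 1.21 CPM in SR-R and between 5.79 and 12.8 CPM in CT. A gene on chromosome 14 (19176277 to 19191863) was at 12.4, 10.1 and 14.9 CPM in SR-L against 4.23, 3.24, 6.14 and 4.31 CPM in SR-R. Smaller differences were found in better expressed genes of this class. A 69-base mitochondrial gene (MT, 3835 to 3903) was at 22.3, 33.4 and 25.6 CPM in SR-L and 13.6, 16.5, 16.2 and 20.3 CPM in SR-R. A gene on chromosome 20 (5881462 to 5931648) was at 23.1, 20.3 and 21.5 CPM in SR-L and at 15.6, 10.8, 10.6 and 14.6 CPM in SR-R.

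The mitochondrial and chromosome 20 genes parted ways in the groups that the split did not use. The mitochondrial gene was lower than CT in SR-R (log2 fold change -0.65, adjusted p = 0.00308, edgeR), in SS (-0.58, adjusted p = 0.00197) and in YSS (-0.50, adjusted p = 0.039), and at -0.40 in YSR (adjusted p = 0.204). The chromosome 20 gene was lower than CT in SR-R (-0.61, adjusted p = 0.0365) but at 0.05, -0.15 and -0.21 in SS, YSR and YSS, with adjusted p of 0.997, 0.817 and 0.971 (edgeR). Its SS libraries, 16.0 to 25.7 CPM, covered the CT range of 16.1 to 23.0 CPM and lay above all SR-R libraries, while 1 YSR library (XII-R10, 12.2 CPM) and 1 YSS library (XII-R04, 13.6 CPM) lay within the SR-R range.

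The 20 genes lower in SR-L were all detected in every SR library. Their fitted differences were small, 1.15-fold to 1.78-fold with a median of 1.26-fold, and their median level over all libraries was 57.9 CPM. Most were short genes, with a median exonic length of 580 bases and 3.5 exons against 2280 bases and 8 exons over all tested genes, and 14 of the 20 were under 1000 bases, as were 13.9% of the tested genes. ENSRNOG00000060449 (chromosome 3, 175629374 to 175630048, 246 bases of exons) was at 60.5, 73.8 and 67.7 CPM in SR-L and at 88.2, 97.2, 107 and 86.7 CPM in SR-R. Its log2 fold change was -0.49 (SE 0.09, adjusted p = 0.00393, edgeR), and CT ran from 67.3 over 74.5 to 77.0 CPM. All 4 SR-R libraries thus lay above CT, and 1 of the 3 SR-L libraries below it. ENSRNOG00000011494 (chromosome X, 105402867 to 105405580, 669 bases) was at 49.7, 52.1 and 47.1 CPM in SR-L and at 56.3, 62.0, 69.1 and 62.5 CPM in SR-R, with CT between 48.6 and 55.2 CPM. Its log2 fold change was -0.33 (SE 0.06, adjusted p = 0.00541, edgeR).

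These 20 calls rested on the spread estimated over all 30 libraries and on single SR and CT libraries. With the 7 SR libraries fitted alone 0 of the 20 were called, although all 20 kept an unadjusted p under 0.05, and 10 of the 23 were called. Without XII-R05, or without XIII-R09, 3 of the 20 stayed called, and without XII-L07 or XII-L05 4 and 5 of them did. Of the 23, between 14 and 18 stayed called in these 4 fits. Without XIII-R07 and XII-R07 10 and 13 of the 20 stayed called, and without a CT library 10 (XII-R11), 11 (XIII-R06), 12 (XIII-L11, XIII-L12 or XIII-R12), 13 (XIII-R05) and 20 (XIII-R11). Leaving out XIII-L09 kept 9 of the 20 and 17 of the 23 and took the adjusted p of ENSRNOG00000060449 to 0.0517, and leaving out XII-L07 took that of ENSRNOG00000011494 to 0.0744 (edgeR). Within cohort XII (2 against 2 libraries) 3 genes were called, all of them among the 23. Within cohort XIII (1 against 2 libraries) 9 genes were called, 6 higher and 3 lower, and these held 5 of the 23 and 0 of the 20. An unadjusted p under 0.05 was kept by 18 of the 20 in cohort XII and by 10 in cohort XIII.

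**Figure D2:**
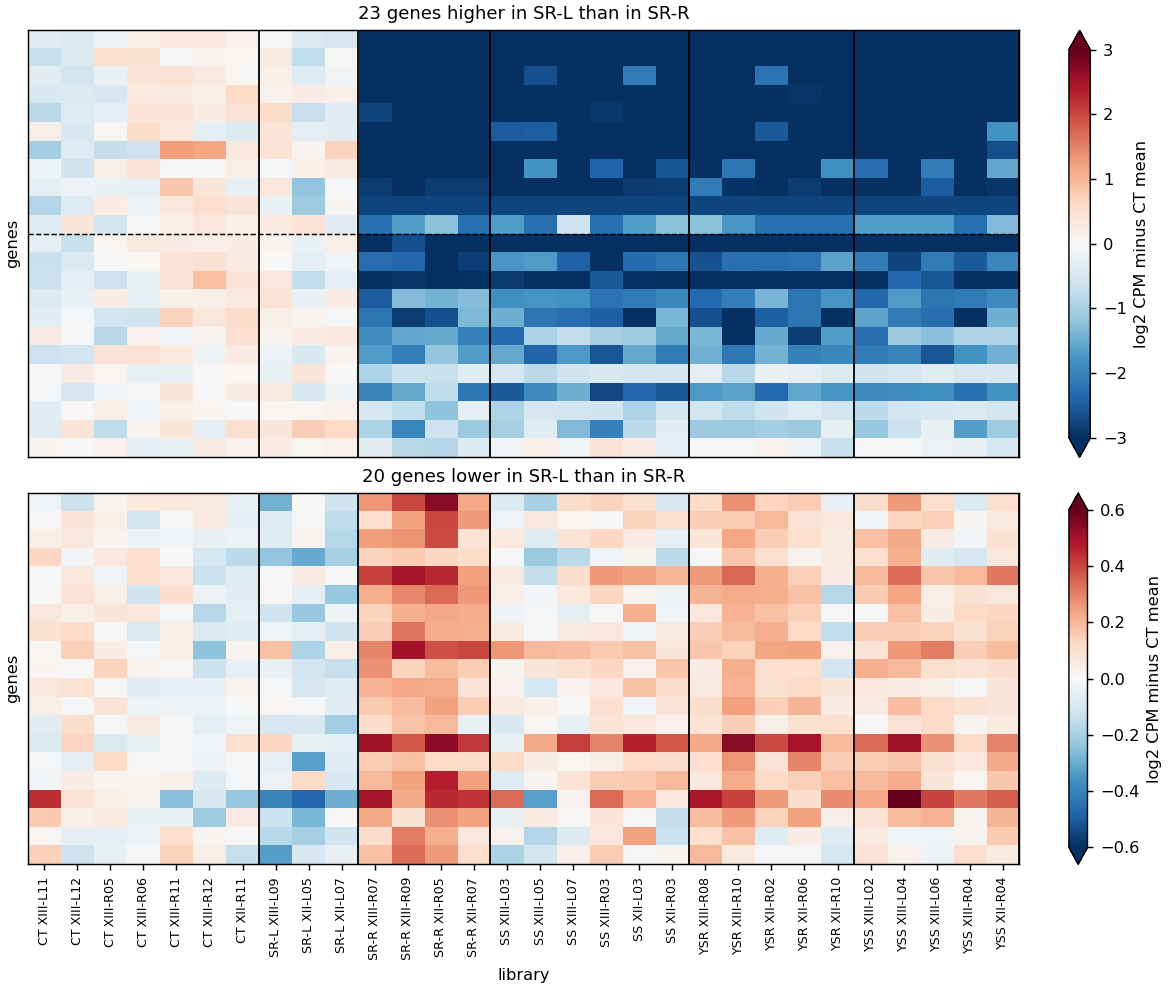
Log2 CPM minus the CT mean of each called gene (lines of cells) in each of the 30 libraries (columns, groups parted by vertical lines), for the 23 genes higher (top, color scale to ±3, the 11 near-0 genes above the dashed line) and the 20 genes lower in SR-L (bottom, color scale to ±0.6). In the upper panel the 3 SR-L columns look like the 7 CT columns and the 4 SR-R columns like SS, YSR and YSS, and in the lower panel the strongest color stands in the SR-R columns.

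Placed against CT, the sides stood apart in most of the 43 genes. SR-L differed from CT in 0 of 16079 genes at an adjusted p under 0.05 (0%; 901 genes, 5.6%, unadjusted, edgeR; 0 with DESeq2). SR-R differed from CT in 83 genes (0.516%), 43 higher (0.267%) and 40 lower (0.249%), and in 2050 (12.7%) unadjusted, and DESeq2 called 120. The number for SR-R fell to 26 without XII-R05 and to 28 without XIII-R09, and to 44 and 53 without the CT libraries XIII-R12 and XIII-R06, and it was 50 with the trend with gene length, described further on, taken out. The unadjusted numbers also turned on single libraries, with 1603 for SR-L without XIII-L09 and 494 without XII-L05, and 1190 for SR-R without XII-R05. The larger number of SR-R libraries, 4 against 3, bears on these counts as well, and the SR libraries that chose the 43 genes also enter both comparisons with CT, so that what follows describes those genes.

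Of the 23 genes higher in SR-L, 22 had an SR-L mean within the range of the CT libraries and 0 an SR-R mean within it. Library by library, 27 of 33 SR-L values of the 11 near-0 genes and 30 of 36 of the other 12 lay within the CT range, against 0 of 44 and 2 of 48 SR-R values. For the near-0 genes the 0 of 44 was largely set in advance. They were picked by low SR-R counts and passed the filter on low counts only through CT and SR-L. SR-L vs. CT had an unadjusted p under 0.05 in 0 of the 23, and SR-R vs. CT an adjusted p under 0.05 in 22. The median log2 fold change to CT was -0.13 for SR-L and -6.07 for SR-R in the 11 near-0 genes, a fitted value that depends on the prior count, and 0.03 and -1.69 in the other 12.

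The 20 genes lower in SR-L were placed less sharply. The SR-L mean lay within the CT range in 13 and the SR-R mean in 1, and the CT mean was nearer to SR-L in 16. SR-R was higher than CT at an adjusted p under 0.05 in 11 and at an unadjusted p under 0.05 in all 20, which held for 6.26% of the tested genes. SR-L vs. CT was past these thresholds in 0 and 6. Their median log2 fold change to CT was -0.10 in SR-L and 0.22 in SR-R, and 0.00 on both sides over all tested genes. By single values, 29 of 60 in SR-L and 12 of 80 in SR-R fell within the CT range.

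**Figure D3:**
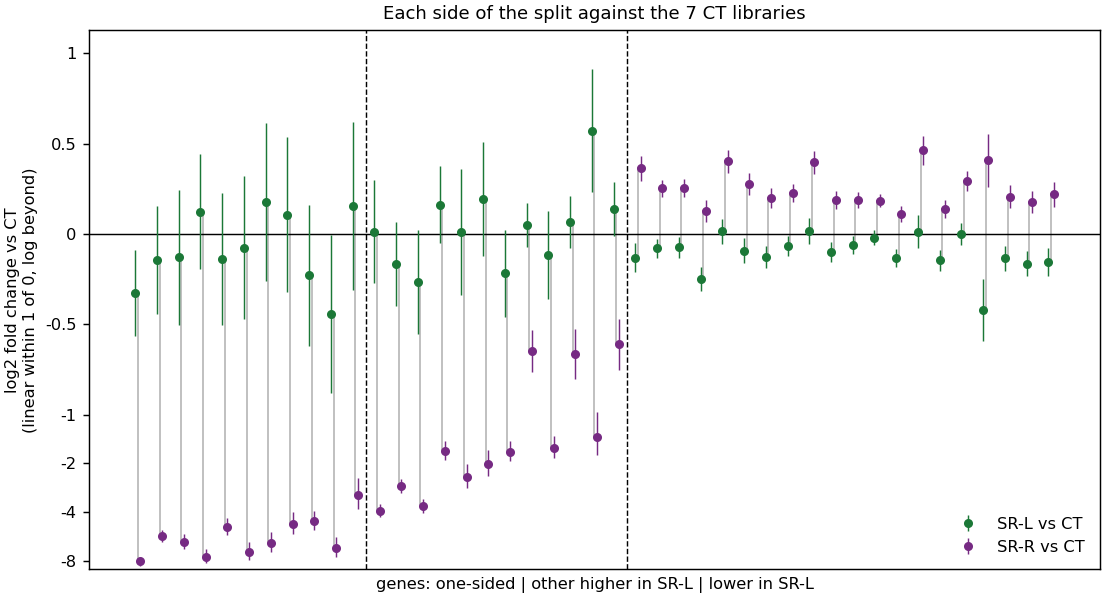
Fitted log2 fold change against CT (points) of SR-L (green) and SR-R (purple) for each of the 43 called genes, with the vertical axis linear within 1 of 0 and logarithmic beyond. Bars are standard errors derived from the F statistic of the test, which can understate counting error in the near-0 genes of SR-R. The SR-L points lie between -0.44 and 0.57 in all 3 classes of genes, the SR-R points of the 23 higher genes lie below 0, and those of the 20 lower genes lie above 0 by at most 0.5.

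The 16 libraries of SS, YSR and YSS were not in the contrast that chose these genes, but they entered the fit that estimated the spread, and with the SR and CT libraries alone 17 of the 23 and 6 of the 20 were called. They were compared with the same CT libraries, side by side and not as independent tests. SS, YSR and YSS differed from CT in 23 (0.143%), 29 (0.18%) and 23 (0.143%) genes at an adjusted p under 0.05 and in 840 (5.22%), 1249 (7.77%) and 845 (5.26%) unadjusted. Of the adjusted calls, 23 (0.143%), 25 (0.155%) and 22 (0.137%) were lower than CT, and all 11 near-0 genes were among them in each of the 3 groups. Of the other 12 genes, 10, 9 and 8 were called, also lower. The near-0 genes had passed the filter on low counts only through CT and SR-L libraries. The 20 genes lower in SR-L behaved in another way. They were higher than CT in 15 (SS), 20 (YSR) and 20 (YSS), with 0, 1 and 0 adjusted calls (0%, 0.0249% and 0.00622% of the tested genes) and 3, 15 and 12 unadjusted calls (2.74%, 3.67% and 2.41%), and with median log2 fold changes of 0.04, 0.13 and 0.11. SR-R differed in 0 genes from SS, YSR or YSS at an adjusted p under 0.05 (0%, edgeR), whereas SR-L differed from them in 21 (0.131%), 23 (0.143%) and 21 (0.131%). Most of these SR-L calls were genes among the 23, which were picked for being higher in SR-L than in SR-R. The contrast of these numbers with 0 thus largely repeats that choice and is no separate placement of the sides. Unadjusted, SR-R differed from SS, YSR and YSS in 1307, 1192 and 1273 genes (8.13%, 7.41% and 7.92%). For SR-L these were 1056, 1354 and 1077 (6.57%, 8.42% and 6.7%). By this looser threshold SR-R differed from SS and YSS in more genes than SR-L did, and from YSR in fewer. The same contrasts with DESeq2 were not run.

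The letters L and R also occur in CT (2 L, 5 R), SS (4 L, 2 R) and YSS (3 L, 2 R), while all YSR libraries carry R. In CT and YSS the L libraries were all of cohort XIII and 1 R library in each was of cohort XII. Letter and cohort are thus partly mixed in these groups. In a fit with each group split by letter, L and R differed in 0 genes in CT, SS and YSS at an adjusted p under 0.05 (0%; 871, 1137 and 481 unadjusted, 5.42%, 7.07% and 2.99%, edgeR), and DESeq2 called 2, 4 and 0. In the SR group the same fit called 33 (0.205%). With cohort as a covariate, L and R still differed in 0 genes in CT, SS and YSS at an adjusted p under 0.05 (edgeR). Among the 23 genes higher in SR-L, L was above R in 4 in CT, 11 in SS and 9 in YSS. In CT the direction was thus mostly opposite, with a median log2 fold change of -0.55. The 11 near-0 genes summed to 13.8 and 14.1 CPM in the 2 CT libraries with L and to between 17.9 and 25.6 CPM in the 5 with R. These did not overlap (exact two-sided permutation test, p = 0.0952, the smallest that 2 against 5 allow, adjusted p = 0.286 over 9 comparisons). In SS and YSS these genes were near 0 under both letters, so that a difference between letters was not detectable at this depth.

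The difference between the letter effect in SR and its mean in CT, SS and YSS was past the adjusted threshold in 9 genes (0.056%). Of these, 8 were in the direction of higher in SR-L (0.0498%) and 1 of lower (0.00622%), and all were among the 43. The SR difference that chose the 43 genes is part of this contrast, so that the overlap and the directions were largely set in advance. For the near-0 genes, SS and YSS could show little letter effect. The difference of letter effects was 3.95 on the log2 scale for ENSRNOG00000005542 (adjusted p = 0.00292, edgeR). For ENSRNOG00000007092 it was 8.62 (adjusted p = 0.00641) and leans on single counts in SS and YSS. The chromosome 9 gene at 74124016 to 74236274 had 2.69 (adjusted p = 3.09e-05) and the chromosome 14 gene at 19176277 to 19191863 had 1.77 (adjusted p = 0.00164). The lower gene was a 6-exon gene on chromosome 1 (187759480 to 187766709) with -0.39 (adjusted p = 0.0373), at 111, 118 and 104 CPM in SR-L and 139, 141, 153 and 124 CPM in SR-R. No lower gene was called in 11 of the 18 fits that left out a CT, SS or YSS library, nor among genes counted 10 times or more in each library. With DESeq2 45 genes were called, 18 and 27.

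Gene length moved with the split. Among 13896 genes counted 10 times or more in each library, the median log2 fold change of SR-L vs. SR-R was -0.07 for the 422 genes with up to 500 bases of exons, -0.09 for the 992 genes with 501 to 1000, -0.04 for 3946 genes with 1001 to 2000, 0.01 for 5569 genes with 2001 to 4000 and 0.06 for 2967 genes over 4000. In the class of 501 to 1000 bases 17.9% of the genes had an unadjusted p under 0.05 and were lower in SR-L, against 0.539% of the genes over 4000 bases, where 7.08% were higher. The slope of each library's log2 CPM on log2 length was 0.0312, -0.00027 and 0.0145 in SR-L (XIII-L09, XII-L05, XII-L07), and -0.00564, -0.0154, -0.0534 and -0.00715 in SR-R (XIII-R07, XIII-R09, XII-R05, XII-R07). No SR-R library overlapped SR-L, but the exact permutation test of 3 against 4 cannot go below p = 0.0571, the value it gave (two-sided, adjusted p = 0.457 over 8 measures of the libraries). SR-R also lay below all CT libraries (0.0132 ± 0.0128, SD, n = 7; exact p = 0.00606, the smallest possible, adjusted p = 0.0242 over 4), whereas SR-L vs. CT gave an exact p of 0.85. Low slopes were not particular to SR-R. The slopes ran from -0.0350 to 0.0269 in SS, from -0.0232 to 0.000356 in YSR and from -0.0241 to 0.0105 in YSS. Each of these groups thus also reached below the lowest CT slope of -0.00217.

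When each library's trend with length was taken out, an alternative chosen after the data were seen, 24 genes were called, 19 higher and 5 lower, and these were 19 of the 23 and 5 of the 20. All 20 kept an unadjusted p under 0.05, and the log2 fold change of ENSRNOG00000060449 went from -0.49 to -0.45 (adjusted p = 0.0042) and that of ENSRNOG00000011494 from -0.33 to -0.25 (adjusted p = 0.0438, edgeR).

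**Figure D4:**
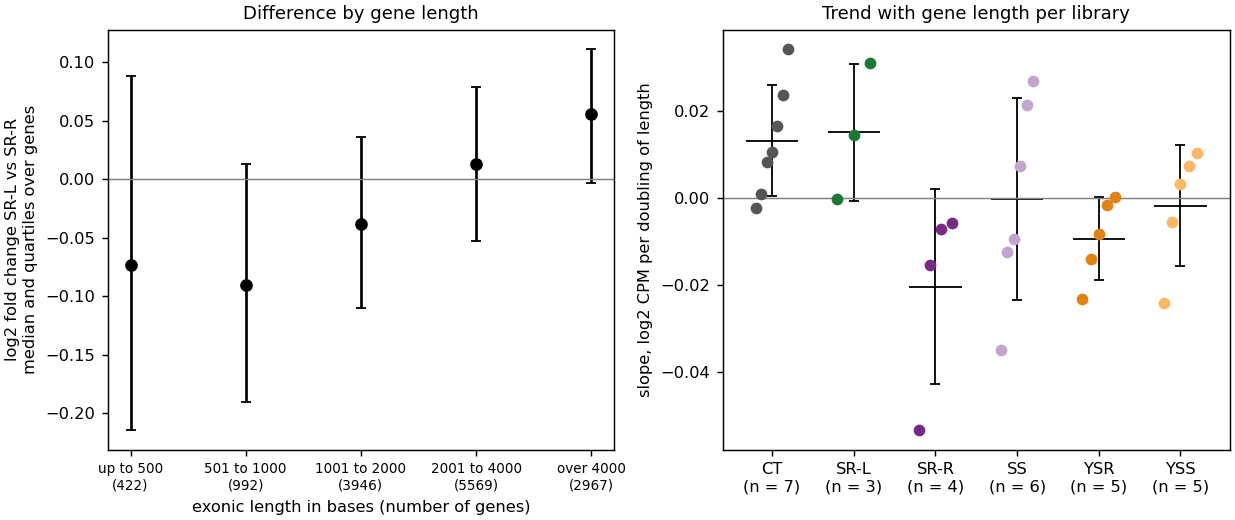
Left, median log2 fold change of SR-L vs. SR-R with the quartiles over genes, in 5 classes of exonic length (number of genes in brackets). Right, slope of log2 CPM per doubling of gene length in each library (points, lines and bars at mean ± SD), with the 4 SR-R libraries below the 3 SR-L libraries and XII-R05 the lowest of all at -0.0534.

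Outside the 43 genes the sides were not told apart by where they stood between CT and the other shocked groups. Over 13871 genes counted 10 times or more in each library, a score that puts the CT mean at 0 and the mean of SS, YSR and YSS at 1 was 0.150, 1.02 and 0.757 in SR-L and 0.426, 0.736, 1.33 and 0.733 in SR-R (exact permutation test, p = 0.8, adjusted p = 0.8 over 8). The share of these genes outside the range of the 7 CT libraries was 22.6%, 38.2% and 26.0% in SR-L and 30.8%, 30.9%, 48.9% and 25.5% in SR-R (p = 0.571, exact permutation test), where a further CT library would give 25%. In both measures the lowest and the highest libraries of the sides interleaved, with XII-R05 the farthest from CT. The SR-L libraries, which lay with CT in the 23 genes, thus spread from XIII-L09 near CT to XII-L05 at the level of the other shocked groups.

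**Figure D5:**
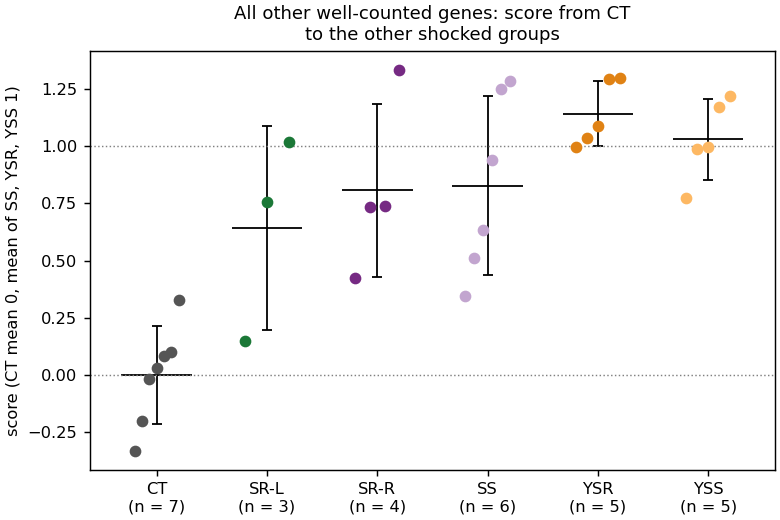
Score of each library over 13871 genes without the 43 called ones, with the CT mean at 0 and the mean of SS, YSR and YSS at 1 (points, lines and bars at mean ± SD). The SR-L libraries, 0.150 to 1.02, and the SR-R libraries, 0.426 to 1.33, overlap.

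Of the genes that differed between the sides only at an unadjusted p under 0.05, the CT mean was nearer to SR-L in 59.9% of the 459 higher and 70.3% of the 654 lower ones, against 54.0% of all tested genes. SR-R vs. CT had an unadjusted p under 0.05 in 41.2% and 52.4% of them, and SR-L vs. CT in 18.1% and 17.1%, where the shares over all tested genes were 12.7% and 5.6%. These lists were chosen on SR libraries that also enter both comparisons with CT, so that these shares describe the lists and were not tested.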

How the data were processed

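RNA of 30 rats was sequenced from poly(A)-selected libraries. According to the submitters' processing notes, bcl2fastq 2.17, Trimmomatic 0.36, STAR 2.5.2b and featureCounts of Subread 1.5.2 were used. The authors deposited raw counts per Ensembl gene, 1 table per rat, with position and exonic length. Genome build, annotation release and use of strand are not given in the sources used here, so that overlapping genes and close copies may share reads.

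SR libraries were split by the letter of their titles. All 30 libraries in 6 groups (CT, SR-L, SR-R, SS, YSR and YSS) were fitted with edgeR 4.0.16 (R 4.3.3; TMM, filterByExpr, glmQLFit, glmQLFTest), and 16079 of 32552 genes were tested. A further fit split every group by letter (9 groups). Log2 CPM were computed with 2 as the prior count. Standard errors of fitted changes were derived as the size of the log2 fold change divided by the square root of the F statistic. Exact two-sided permutation tests (scipy 1.17.1) served for single values of a library. The members, gene lists and tests were chosen with earlier results of these data known.

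Named by identifier were, among genes higher in SR-L, the gene of smallest p of the near-0 class and that of the others, and, among genes lower in SR-L, the 2 of smallest p, since unpaired identifiers were limited to 2 in each direction. Genes given by position were chosen after their values were seen. The rule also asked for genes that the study names and for members of marker lists, which were not analysed here because no identifier was matched to a symbol. On simulated counts for SR-L vs. SR-R (15922 genes, 100 changed per fold), edgeR recovered a share of 0.94 of the 2-fold and 0.4 of the 1.3-fold changes with 7 false calls. DESeq2 recovered 0.95 and 0.48 with 17 false calls. Changes were planted only in better counted genes, so that recovery was not measured for the near-0 genes. The simulated counts also held no trend with gene length, so that the false calls do not cover small changes in short genes.

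Alternatives were DESeq2 1.42.0, median-ratio size factors, 2 other filters on low counts, cohort as a covariate, fits of fewer libraries, a replicate block and each SR and CT library left out in turn. The removal of the length trend (lowess, span 0.3), the measures of the libraries, the comparisons with SS, YSR and YSS and the libraries left out of the 9-group fit were added after the data were seen. Rats are separate animals, so that p-values measure the spread between rats. Each yoked rat was tied to an SR or SS rat by its shocks, however, and the fits held no term for these pairs.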

Additional observations from a re-analysis of the deposited data

Results flagged for a closer look

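The CPM of ENSRNOG00000007092 had a library far from the others in 3 groups, SR-R (XII-R05, 0.0590 CPM), YSR (XII-R06, 0.0597 CPM) and YSS (XIII-R04, 0.0567 CPM). Each is a single count where all other libraries of the group had none, and so lies under the floor of 3 counts. In 75 sets of values examined 3 stood out in this way, and chance gives about 3.75.

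The letter effect in SR differed from the mean letter effect of CT, SS and YSS by 8.62 on the log2 scale for ENSRNOG00000007092 and by 3.95 for ENSRNOG00000005542. It did so in 9 genes in all (edgeR's quasi-likelihood test, adjusted p under 0.05). The SR difference that chose the named genes is part of this contrast, so that their direction was largely set in advance. The number of genes ran from 6 to 15 when each CT, SS and YSS library was left out in turn, with 15 without SS XIII-L05, and the lower genes among them from 0 to 6.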

How the results depend on the processing

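The number of genes that differed between SR-L and SR-R (43) depended on the spread and the filter used. It was 9 among genes counted 10 times or more in each library, a filter that 5 of the 23 and all of the 20 passed and that left 3 and 6 of them called, 10 with the 7 SR libraries alone, 24 with the SR and CT libraries, 24 with the length trend taken out, 3 in cohort XII and 9 in cohort XIII, and 18 (without XIII-R09) to 45 with each SR or CT library left out in turn, and stayed within 1.5 times of 43 when the library left out was a CT library, XIII-R07 or XII-R07. It was 63 with DESeq2, 43 with median-ratio factors, 30 with at least 1 count in any library, 37 with cohort as a covariate and 33 in 9 groups. The lower genes moved more (0 to 39) than the higher genes (3 to 24), and DESeq2 split the calls 24 higher and 39 lower. The unadjusted number (1156) was 769 in the 7 SR libraries, 523 and 543 within the cohorts, and 937 to 1403 with a library left out.

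SR-R vs. CT (83) gave 50 with the length trend taken out, 120 with DESeq2 and 26 to 84 with a library left out, of which the lowest, without XII-R05, also lowered the unadjusted number to 1190 (range to 2423). SR-L vs. CT (0) gave 1 with cohort as a covariate, and unadjusted 494 without XII-L05 to 1603 without XIII-L09. By letter, CT gave 2 genes with DESeq2 and 0 to 5 with a library left out, SS 4 and 0 to 3 (unadjusted 627 without SS XII-R03 to 1822 without SS XII-L03), YSS 0 and 0 to 1. The difference of letter effects gave 45 with DESeq2, 2 with the filter of 10 counts, and 6 to 15 with a library left out. None of the 4 named genes changed direction under the alternatives that gave it a value.

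The deviations of same-numbered SR libraries of a cohort (3 pairs) had correlations of 0.103, 0.0131 and -0.188. Pairs of other numbers ran from -0.162 to 0.153. The deviations were taken from means of few libraries, so that 3 pairs cannot decide whether the numbers pair them. A replicate block over these 6 libraries called 5 genes (911 unadjusted), against 10 (757 unadjusted) without the block. The 2 lower named genes were not called in the fits of the SR libraries alone, within cohorts or with the block, which left fewer libraries to estimate the spread, and ENSRNOG00000011494 was also not called with the SR and CT libraries alone (adjusted p = 0.0705, edgeR). Depth limits the near-0 genes, where 1 count is the step between libraries.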
